A study of Sus scrofa with 30 samples.

Results

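Endometrial miRNAs of cyclic gilts were compared between day (D) 20 and D12 of the estrous cycle. All libraries labelled D20 of the cycle (CD20, n = 5) and D12 of the cycle (CD12, n = 4) were taken, which are 9 of the 30 libraries of the series. The other libraries come from D16 of the cycle (CD16) and from D12, D16 and D20 of pregnancy (PD12, PD16 and PD20). Each library was made from the small RNA of the whole endometrium of 1 gilt. The gilts were Hampshire and Duroc crossbreds from 1 herd, aged 7 to 8 months. The growth protocol in the labels speaks of insemination after the third estrus and does not set the cyclic gilts apart. No treatment other than the reproductive state and the day distinguished the groups. Samples of PD20 were taken at implantation sites. The endometrium holds luminal and glandular epithelium, stroma, vessels and leukocytes, and in such bulk tissue fewer cells of a type and less RNA per cell cannot be told apart.

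In the pig, D12 falls in the luteal phase, when corpora lutea secrete progesterone. By D20 the corpora lutea of a cyclic gilt have regressed and new follicles grow towards the next estrus. A miRNA is a short RNA that guides Argonaute proteins to target mRNAs, mainly through its seed, which is taken here as bases 2 to 8 of the sequence. An isomiR is a form of a miRNA that starts or ends at another base, and a change at the 5′ end gives another seed.

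For each library the reads of every distinct sequence had been counted. A CD12 library held between 2431740 and 6402731 reads and a CD20 library between 2092518 and 3112489. The 873 sequences that the study annotated to miRNAs took 79.8% ± 1.51 (SD, n = 4) of the CD12 reads and 80.0% ± 1.32 (SD, n = 5) of the CD20 reads. The comparison was made for these sequences, for the sums of 237 miRNAs and for the sums of 258 seeds. Levels are given as CPM, counts per 1000000 annotated reads after TMM scaling, so that 1 read was worth 0.243 to 0.549 CPM in CD12 and 0.323 to 0.533 CPM in CD20. Reads carried no molecular identifiers, and intervals and limits from counts cover counting error only.

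The following sequences belong to the miRNAs described in most detail, of which only both forms of miR-212 and miR-17-5p passed the test between the days, and are written 5′ to 3′ with U as T and with the seed in capitals. The first set has 1 seed in common and held the sequences that passed the test for miR-212.
miR-212, shorter form: tAACAGTCtccagtcacggcc
miR-212, longer form: tAACAGTCtccagtcacggcca
miR-132: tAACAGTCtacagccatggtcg
In the second set miR-17-5p passed the test, and the other members share its seed.
miR-17-5p: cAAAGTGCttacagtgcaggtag
miR-20a: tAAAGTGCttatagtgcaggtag
miR-93-5p: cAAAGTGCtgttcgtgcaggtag
Forms of miR-205 are shown because their change over the days was compared with pregnancy.
miR-205, canonical: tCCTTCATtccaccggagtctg
miR-205, 1 nt longer: tCCTTCATtccaccggagtctgt
The last set belongs to abundant miRNAs whose summed levels were, after TMM scaling, lower in all CD20 libraries than in all CD12 libraries, and it shows how a base lost at the 5′ end moves the seed of miR-140-3p.
miR-140-3p, canonical: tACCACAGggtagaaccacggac
miR-140-3p, 1 nt shorter at the 3′ end: tACCACAGggtagaaccacgga
miR-140-3p, 1 nt shorter at both ends: aCCACAGGgtagaaccacgga
let-7i, most abundant form: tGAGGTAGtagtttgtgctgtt

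A feature was called when its adjusted p was under 0.05 and its log2 fold change (log2FC) was over 1 in size, by edgeR's quasi-likelihood test and Benjamini-Hochberg adjustment over all features of its kind. Of the 873 sequences, 3 rose and 0 fell (0.344% called). Of the 237 miRNA sums, 2 rose and 0 fell (0.844%), and of the 258 seeds 1 rose and 0 fell (0.388%). At an unadjusted p under 0.05 the edgeR test had 71 sequences higher (8.13%) and 54 lower (6.19%) on D20, 14.3% together. The same limit left 16 sums higher and 16 lower (6.75% each, 13.5% together), and 14 seeds higher (5.43%) and 29 lower (11.2%), 16.7% together. DESeq2 called 12 sequences up and 5 down, and the likelihood ratio test of edgeR 10 up and 5 down, so that the absence of sequences that fell depended on the test. The same held for sums, of which DESeq2 and the likelihood ratio test each called 5 up and 4 down, and for seeds, with 3 up and 1 down by DESeq2 and 2 up and 3 down by the likelihood ratio test. CD20 libraries did not overlap CD12 libraries for 39 sequences (4.47%), 24 of them higher (2.75%) and 15 lower (1.72%) on D20. The same held for 12 sums (5.06%), 6 in each direction (2.53%), and for 9 seeds (3.49%), 4 higher (1.55%) and 5 lower (1.94%). Per 1000000 deposited reads, the 6 higher sums (miR-212, miR-132, miR-17-5p, miR-93-5p, miR-155 and miR-205) still did not overlap, whereas the 6 lower sums (let-7i, miR-140-3p, miR-182, miR-107, miR-210 and miR-504) did. The median log2FC was 0.09 for sequences, 0.01 for miRNA sums and -0.11 for seeds. With library sizes taken from all deposited reads in place of TMM, these medians moved up by 0.39, 0.51 and 0.49. Directions here and below are signs of the log2FC after TMM scaling, unless another scaling is named.

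**Figure D1:**
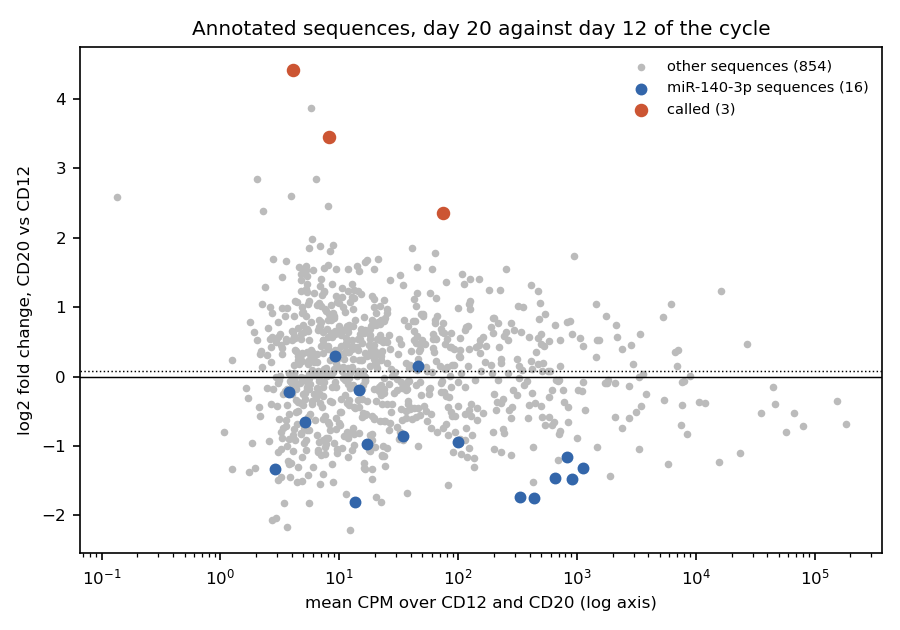
Each point is 1 annotated sequence, with its mean CPM over CD12 and CD20 libraries on a log axis and its log2FC on D20 vs D12; the dotted line is the median of all sequences (0.09). The 3 called sequences (orange) have a log2FC of 2.36 or more, and 14 of the 16 miR-140-3p sequences (blue) lie below 0.

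The 873 sequences were not a neutral list, because the study had kept sequences with at least 10 reads in most libraries of at least 1 group. The minimum of 10 reads was met in both groups by 604 sequences, in CD20 and not CD12 by 57 and in CD12 and not CD20 by 84. Of the 3 called sequences 1 met it in CD12. No called sequence met it in CD20 alone among the groups of the series.

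miR-212 and miR-132 are made from neighbouring genes, and their transcription is known to respond to cAMP and the factor CREB. In the pig annotation (Sscrofa11.1) MIR132 and MIR212 adjoin each other between OVCA2 and HIC1. Summed miR-212 measured 2.71, 1.66, 1.83 and 0.445 CPM in the CD12 libraries. In the CD20 libraries it measured 15.2, 33.3, 18.3, 12.4 and 24.2 CPM. All CD20 libraries were far above all CD12 libraries, with CD20 replicate 2 the highest and CD12 replicate 4 the lowest. The sum rose by 3.65 ± 0.65 (SE) on the log2 scale (edgeR adjusted p = 0.00303) and was called under each of 23 alternatives tried for it. On D16 of the cycle miR-212 averaged 3.06 ± 2.22 CPM (SD, n = 5).

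The counts behind these levels were small. Reads of the shorter miR-212 form numbered 3, 6, 3 and 1 in CD12 and 29, 54, 30, 18 and 39 in CD20. Those of the longer form numbered 1, 1, 1 and 0 in CD12 and 13, 43, 15, 5 and 16 in CD20. Both forms rose, with an edgeR adjusted p of 0.0376 for each. Because no CD12 library had more than 3 reads of the longer form, its fold was taken against 3 reads per CD12 library (1.24 CPM on average) and was at least 5.73-fold. Neither form was called without any 1 of the CD12 replicates, CD16 replicate 2 or CD20 replicate 2. The edgeR adjusted p was highest without CD12 replicate 4, at 0.187 for both, and without CD20 replicates 1 and 2 together it was 0.215 and 0.299.

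miR-132 showed the same separation of the groups. Its reads numbered 2, 0, 3 and 1 in CD12 and 8, 57, 24, 21 and 12 in CD20. Every CD20 library was above every CD12 library, and the level was at least 7.90-fold higher on D20 against the same floor. Its sum did not pass (edgeR adjusted p = 0.0505), but it was called in 11 of 23 alternatives, among them the likelihood ratio test of edgeR (adjusted p = 0.00161) and DESeq2 (adjusted p = 0.00267). The seed AACAGTC, which joins miR-132 and both forms of miR-212, measured 3.49, 1.64, 3.73 and 0.865 CPM in CD12 and 20.5, 44.8, 28.1, 25.8 and 29.2 CPM in CD20. It rose by 3.65 ± 0.61 (SE) on the log2 scale (edgeR adjusted p = 0.000731), without overlap of the groups. The seed was called in 23 of 23 alternatives.

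**Figure D2:**
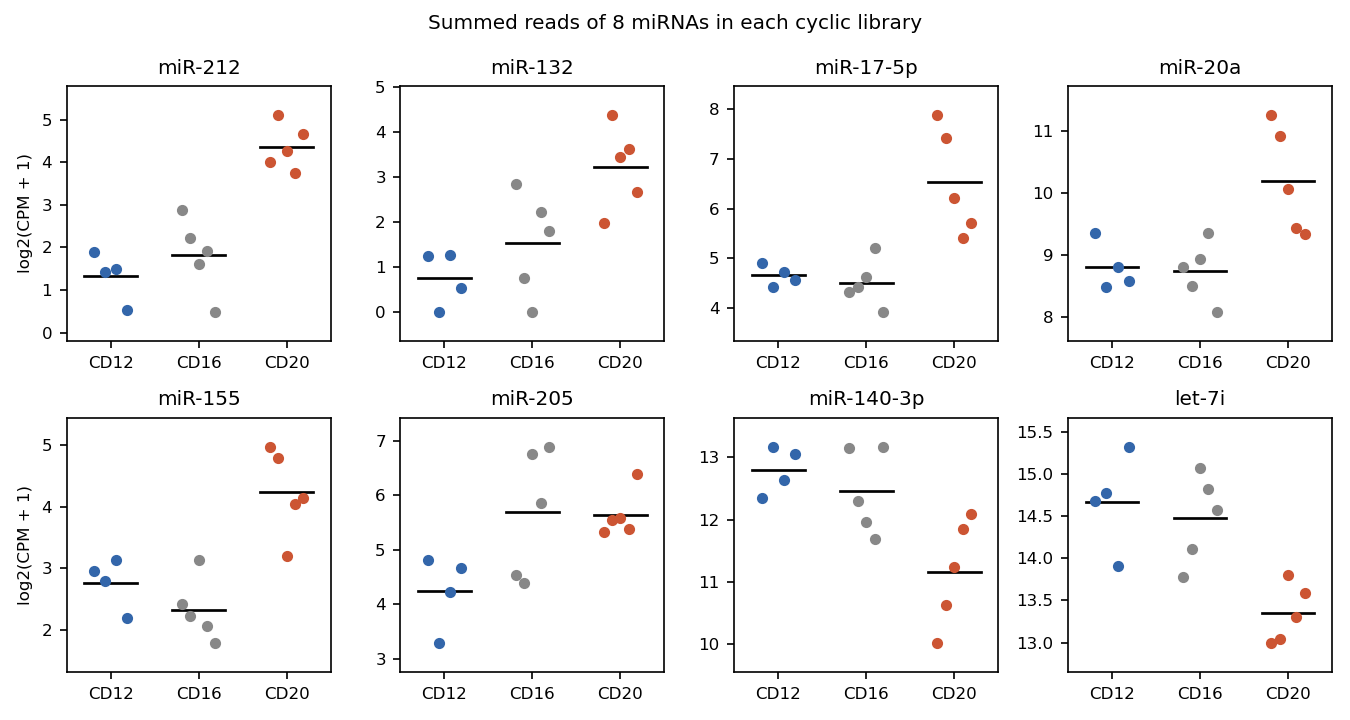
log2(CPM + 1) of 8 miRNA sums in each CD12, CD16 and CD20 library, 1 point per gilt, with the mean of these log values as a line; each panel has its own axis, which does not start at 0. The CD20 points of miR-212, miR-132, miR-17-5p, miR-155 and miR-205 lie above all CD12 points, and those of miR-140-3p and let-7i below.

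The miR-17-92 cluster is a polycistron best known for promoting cell proliferation, and its paralogs include the miR-106b-25 cluster, to which miR-93 belongs. In the annotation MIR17 adjoins MIR18A, and MIR20A lies between MIR19A and MIR19B-1. Summed miR-17-5p measured 29.1, 20.4, 25.6 and 22.7 CPM in CD12 and 233, 169.8, 73.2, 41.3 and 51.5 CPM in CD20. All CD20 libraries were above CD12, but CD20 replicates 1 and 2 were far above the other CD20 libraries. miR-17-5p rose by 2.22 ± 0.50 (SE) on the log2 scale (edgeR adjusted p = 0.0248). Without CD20 replicates 1 and 2 its log2FC was 1.26 (edgeR adjusted p = 0.128). The call was also lost without any 1 of the CD12 replicates, CD20 replicate 1 or CD20 replicate 2, with an edgeR adjusted p of at most 0.0943. Over all single libraries left out the log2FC lay between 1.78 and 2.43. The canonical miR-17-5p sequence rose by 2.36 ± 0.51 (SE) on the log2 scale (edgeR adjusted p = 0.0484) and was called in 10 of 24 alternatives.

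Others of these clusters did not pass. miR-20a measured 650.2, 356, 447 and 379.8 CPM in CD12 and 2445, 1937, 1071, 693 and 642 CPM in CD20 (log2FC 1.57 ± 0.45 SE, edgeR adjusted p = 0.0931). Again CD20 replicates 1 and 2 were highest, and the lowest CD20 library lay just under the highest CD12 library. Without CD20 replicates 1 and 2 the log2FC of miR-20a was 0.90. With all libraries, the likelihood ratio test of edgeR and DESeq2 called miR-20a (adjusted p = 0.0242 and 0.00874). miR-93-5p averaged 51.9 ± 8.21 CPM in CD12 and 88.0 ± 21.1 CPM in CD20 without overlap (edgeR adjusted p = 0.325). Of the 10 sums found for 9 of 13 precursors of these clusters, 1 rose, 0 fell (0.844% of all sums were called), 6 had a positive log2FC, against 120 of all 237, and the median was 0.33, against 0.01 over all sums. miR-92a averaged 580.4 and 769.7 CPM, and miR-19b 164 and 145 CPM. The summed level of the clusters was 2081 ± 243 CPM in CD12 and 3419 ± 632 CPM in CD20 without overlap. Members with the seed AAAGTGC, a seed chosen after its values were seen, summed to 588 ± 134 CPM in CD12 and 1695 ± 1140.2 CPM in CD20 (log2FC 1.53 ± 0.46 SE, edgeR adjusted p = 0.145).

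miR-155 is made from a noncoding host gene that is induced in activated lymphocytes and macrophages. It measured 6.77, 5.94, 7.78 and 3.56 CPM in CD12 and 30.3, 26.8, 8.14, 15.6 and 16.7 CPM in CD20. The groups did not overlap, although CD20 replicate 3 was close to the highest CD12 library. The log2FC was 1.70 ± 0.49 (SE) and did not pass (edgeR adjusted p = 0.0931). The likelihood ratio test of edgeR and DESeq2 called miR-155 (adjusted p = 0.0242 and 0.0287). miR-146a-5p, which damps signalling from Toll-like receptors through IRAK1 and TRAF6, was the most abundant miRNA of the leukocyte list. Its canonical sequence measured 159, 88.9, 90.3 and 77.5 CPM in CD12 and 301, 192, 333, 222 and 188 CPM in CD20 (log2FC 1.25 ± 0.41 SE, edgeR adjusted p = 0.180). For this sequence every CD20 library was above every CD12 library. The sum of miR-146a-5p averaged 165 ± 73.2 CPM in CD12 and 296 ± 56.2 CPM in CD20 (log2FC 0.85 ± 0.40 SE, edgeR adjusted p = 0.345), with overlap, as CD12 replicate 1 reached 275 CPM.

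The leukocyte list as a whole held 4 of 5 precursors by name (miR-142, miR-146a, miR-150 and miR-155), while miR-223 was not among the annotated sequences. All 5 of its sums had a positive log2FC, against 120 of all 237, with a median of 0.92, against 0.01, and 0 were called, against 0.844%. Its summed level was 370.1, 166, 195 and 162 CPM in CD12 and 539, 381, 440.1, 393 and 308 CPM in CD20. CD12 replicate 1 lay among the CD20 libraries and the other CD12 libraries below them. Summed levels of miR-126, the endothelial miRNA, averaged 2763 ± 1060.1 CPM in CD12 and 4320.1 ± 368 CPM in CD20. The groups overlapped, as CD12 replicate 1 (4153 CPM) was above CD20 replicates 3 (4006 CPM) and 5 (3941 CPM). The 5p arm of miR-126 had a log2FC of 1.14 ± 0.50 SE (edgeR adjusted p = 0.301), and 0.18 without CD20 replicates 1 and 2. The more abundant 3p arm had a log2FC of 0.63 ± 0.35 SE (edgeR adjusted p = 0.467), and 0.76 without these libraries. The part of leukocytes and vessels in the differences of miR-17-5p, miR-155 and miR-212 was not tested.

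miR-205 is an epithelial miRNA, encoded within a long noncoding RNA gene. Its sum measured 27.1, 8.80, 17.9 and 24.5 CPM in CD12 and 39.0, 45.97, 46.8, 40.8 and 83.2 CPM in CD20 (log2FC 1.40 ± 0.53 SE, edgeR adjusted p = 0.264). Groups did not overlap, and CD20 replicate 5 stood above the rest of its group. On D16 the mean was 65.0 ± 46.1 CPM (SD, n = 5), but the level was not high in every library. Scaled over all 30 libraries, CD16 replicates 3, 4 and 5 measured 109, 54.7 and 122 CPM. CD16 replicates 1 and 2 (25.1 and 24.3 CPM) were close to the highest CD12 library (22.9 CPM). Most other miRNAs of the epithelium list had negative values. All 12 of its precursors were found. Of its 14 sums 11 had a negative log2FC, against 117 of all 237, and 0 were called, against 0.844%. The median was -0.41, against 0.01 over all sums. The summed level of the list was 18876, 18171, 14519.5 and 19664 CPM in CD12 and 10050.2, 10009, 13499.9, 13963.5 and 13438 CPM in CD20. CD20 libraries were below CD12 libraries after TMM scaling. Per 1000000 deposited reads the list took 11523 ± 1209.8 in CD12 and 11432 ± 1686 in CD20, which overlapped. On that scale its median log2FC was 0.12 against 0.52 over all sums, so that it was below the median of all sums with either scaling. Its most abundant member, miR-182, averaged 6400.3 ± 919.6 CPM in CD12 and 3653 ± 1177 CPM in CD20 without overlap (edgeR adjusted p = 0.376).

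miR-140-3p is best known from cartilage and is encoded within WWP2. Its 16 sequences summed to 5195, 9211, 6358 and 8517 CPM in CD12 and 1034, 1578, 2403, 3687 and 4348 CPM in CD20. All CD20 libraries were below all CD12 libraries, and CD20 replicates 1 and 2 were lowest. Per 1000000 deposited reads it took 4814 ± 1430 in CD12 and 2375 ± 1093 in CD20, with overlap. The log2FC was -1.49 ± 0.45 (SE) and did not pass (edgeR adjusted p = 0.0968), while the likelihood ratio test of edgeR and DESeq2 called it (adjusted p = 0.0348 and 0.0384). It was -1.02 with library sizes from all deposited reads and -1.03 without CD20 replicates 1 and 2. The 5p arm of the same precursor averaged 78.1 ± 18.5 CPM in CD12 and 94.0 ± 58.5 CPM in CD20 (log2FC 0.27 ± 0.45 SE, edgeR adjusted p = 0.811).

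Both main seeds of miR-140-3p showed the same direction. Sequences with the canonical seed ACCACAG summed to 1894, 3869, 2661 and 3147 CPM in CD12 and to 513, 494, 973, 1450.3 and 1289.5 CPM in CD20 (log2FC -1.62 ± 0.46 SE, edgeR adjusted p = 0.145). Those that start 1 base later, with the seed CCACAGG, summed to 2425, 4922, 4408 and 4885 CPM in CD12 and to 605, 791, 1344, 2372 and 2813 CPM in CD20 (log2FC -1.39 ± 0.49 SE, edgeR adjusted p = 0.206). The groups did not overlap for the first seed, and for the second 1 CD20 library exceeded the lowest CD12 library. Within miR-140-3p, 14 of 16 sequences had a negative log2FC, against 400 of all 873. Of the 16, 7 were lower at an unadjusted p under 0.05 by edgeR, against 6.19% of all sequences. These 16 are forms of 1 miRNA counted in the same libraries, so that they are not independent of each other. The form that lacks 1 nt at both ends averaged 1015 ± 212 CPM in CD12 and 369.8 ± 68.7 CPM in CD20 (log2FC -1.46 ± 0.36 SE, edgeR adjusted p = 0.0856). In contrast, the 2 sequences that end 2 nt before the canonical end had log2FCs of 0.15 and 0.30.

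let-7i belongs to the let-7 family, which is known for promoting differentiation. It measured 26341, 28164, 15342 and 40984 CPM in CD12 and 8166, 8421, 14302, 10130.0 and 12354 CPM in CD20. Every CD20 library was below every CD12 library, with CD12 replicate 3 close to CD20 replicate 3. Per 1000000 deposited reads CD20 replicate 3 was above CD12 replicate 3. The log2FC was -1.38 ± 0.38 (SE) and did not pass (edgeR adjusted p = 0.0931), while the likelihood ratio test of edgeR and DESeq2 called it (adjusted p = 0.0242 and 0.00874), and with library sizes from all deposited reads it was -0.78. Of the 15 let-7 sums, 8 had a positive and 7 a negative log2FC, against 120 and 117 of all 237, with a median of 0.07. let-7f, the most abundant of them, averaged 71499 ± 17583 CPM in CD12 and 54912 ± 17371 CPM in CD20 (edgeR adjusted p = 0.600), and let-7g 28520.3 ± 11633 and 33829 ± 18065 CPM. miR-504 measured 58.9, 49.0, 87.4 and 81.8 CPM in CD12 and 37.9, 26.1, 39.9, 44.0 and 18.04 CPM in CD20 without overlap (log2FC -1.06 ± 0.41 SE, edgeR adjusted p = 0.272). miR-210, a miRNA induced by hypoxia that is named here after its values were seen, measured 5.41, 10.5, 7.32 and 3.56 CPM in CD12 and 2.53, 1.03, 1.63, 1.61 and 0 CPM in CD20 (log2FC -2.27 ± 0.67 SE, edgeR adjusted p = 0.0931). Its groups did not overlap either, but its counts were small.

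Further sequences with no overlap and an unadjusted p under 0.05 did not pass either. Higher on D20 was miR-23a with 1 nt added at the 3′ end, at 60.2 ± 28.5 CPM in CD12 and 153 ± 30.96 CPM in CD20 (edgeR adjusted p = 0.171). Lower on D20 was the canonical miR-769-5p, at 151 ± 39.2 CPM in CD12 and 69.5 ± 23.6 CPM in CD20 (edgeR adjusted p = 0.206). An isomiR of miR-10a-5p with 1 nt added at the 5′ end and 2 nt at the 3′ end measured 37.8, 6.32, 7.13 and 36.6 CPM in CD12 and 6.12, 4.85, 5.46, 3.20 and 3.58 CPM in CD20 (edgeR adjusted p = 0.111). Its difference came mainly from CD12 replicates 1 and 4, as the other 2 CD12 libraries were near the CD20 libraries.

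The most abundant miRNAs did not pass the test. miR-21, which is abundant in many tissues, took 39.6% ± 14.3 (SD, n = 4) of annotated reads in CD12 and 34.4% ± 11.9 (SD, n = 5) in CD20. miR-143-3p, known from smooth muscle and stroma, measured 185664, 192991, 95146 and 134523 CPM in CD12 and 120126, 103667, 66535, 88749.7 and 81948 CPM in CD20 (log2FC -0.72 ± 0.36 SE, edgeR adjusted p = 0.368). CD12 replicate 3 lay among the CD20 libraries. miR-10b measured 226935, 60841, 49920.4 and 284596 CPM in CD12 and 102016, 102159, 100559, 42254 and 53409 CPM in CD20. Spread within CD12 was larger than the difference of the means, since replicates 1 and 4 were several times replicates 2 and 3. miR-148a-3p was likewise spread within CD20, from 5435 CPM in replicate 1 to 68377 CPM in replicate 5. miR-30a-5p averaged 16943 ± 4108 CPM in CD12 and 19610.5 ± 5178 CPM in CD20, and miR-99a 11664 ± 12727 and 21987 ± 16974 CPM. The log2FC of miR-99a was 0.91, and it lay between 0.34 and 2.00 with single libraries left out.

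**Figure D3:**
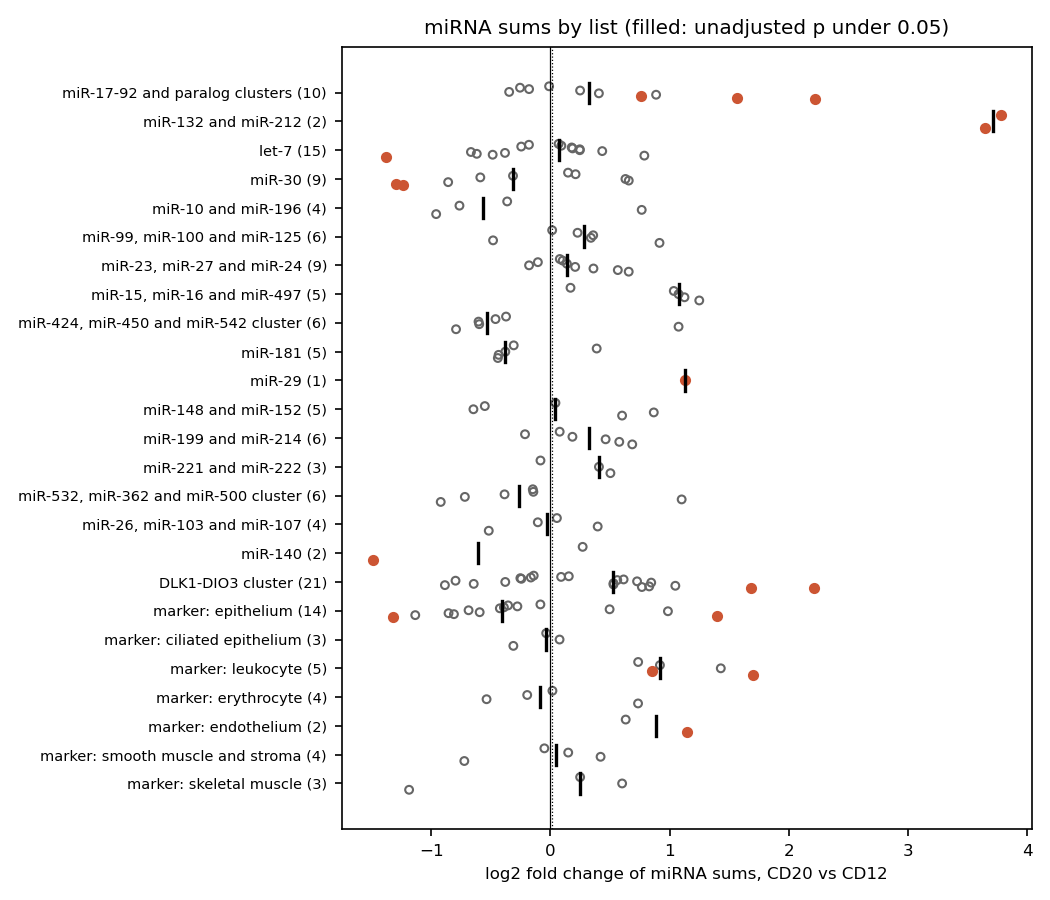
Log2FC of miRNA sums on D20 vs D12, grouped by list, with the number of sums in brackets, the list's median as a bar and the median of all sums (0.01) as a dotted line; filled points have an unadjusted p under 0.05. Only miR-212 and miR-17-5p were called, and the medians of miR-132 and miR-212 (3.71 as fitted, 3.31 with miR-132 at its lower bound), of miR-15, miR-16 and miR-497 (1.07) and of the leukocyte list (0.92) lie furthest to the right among lists with 2 or more sums.

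Among the other families, none had a called sum, where 0.844% of all sums were called. miR-29a, known to repress collagen mRNAs, averaged 57.1 ± 29.5 CPM in CD12 and 125 ± 55.1 CPM in CD20 (edgeR adjusted p = 0.283). miR-16 averaged 234 ± 113 and 510.5 ± 507 CPM and miR-195 168 ± 146 and 399 ± 328 CPM, and they belong to a family known for restraining cell division. The median log2FC of that family was 1.07 with all libraries and 0.02 without CD20 replicates 1 and 2, which held its highest levels. In the miR-30 family, 2 of 9 sums had an unadjusted p under 0.05, both lower on D20 (6.75% of all sums), and miR-30c-3p averaged 482 ± 188 CPM in CD12 and 205 ± 109 CPM in CD20 (edgeR adjusted p = 0.235). Of the imprinted DLK1-DIO3 cluster 18 of 47 precursors were found. It had 13 of 21 sums with a positive log2FC, against 120 of all 237, and a median of 0.53. Medians of the miR-10 (-0.56), miR-30 (-0.31), miR-181 (-0.38), miR-424 (-0.53) and miR-532 (-0.27) lists were below that of all sums. With library sizes from all deposited reads, where the median of all sums was 0.52, they were 0.10, 0.30, 0.14, 0.12 and 0.29 and again below it. The miR-26, ciliated epithelium and erythrocyte lists, with medians of -0.03, -0.04 and -0.09, also stayed below the median of all sums, whereas miR-148 and its relatives moved from just above it (0.04) to below it (0.46). Without CD20 replicates 1 and 2, where the median of all sums was 0.02, the miR-181 and miR-26 lists were above it (0.12 for both), and let-7 (0.01) and smooth muscle (-0.05) miRNAs were below it. The lists of miR-23, miR-99, miR-199 and miR-221 with their relatives had medians of 0.14, 0.28, 0.32 and 0.41, and skeletal muscle and smooth muscle miRNAs medians of 0.25 and 0.05.

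Marker lists were also used to check what the tissue held. Epithelial, stromal, endothelial and leukocyte miRNAs were present in both groups, and no precursor of the embryonic list (0 of 9) was found by name. The sequence that the study assayed as miR-302 is annotated by Ensembl IDs, and it had 0 reads in the CD12 libraries and at most 2 in a CD20 library. Muscle miR-1 stood out in single libraries, at 4378 CPM in CD12 replicate 3 and 8433 CPM in CD20 replicate 4, against 945 to 2016 CPM in the other CD20 libraries. Erythrocyte miRNAs summed to 1019 ± 448 CPM in CD12 and 1019 ± 604 CPM in CD20, led by miR-451. Smooth muscle and stromal miRNAs summed to 153576 ± 46027 and 93856 ± 21002 CPM, with overlap. Whether the share of these cells moved any of the differences above was not tested.

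The libraries of a day did not form a tight group. In a principal component analysis of the 14 cyclic libraries, CD20 replicates 1 and 2 lay apart from all others on the first component, which held 28.8% of the variance. CD20 replicates 4 and 5 lay next to CD12 replicate 4. Small RNA libraries were sequenced in 3 multiplex pools, but the pool of each library is not given, so that pool and day cannot be told apart.

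**Figure D4:**
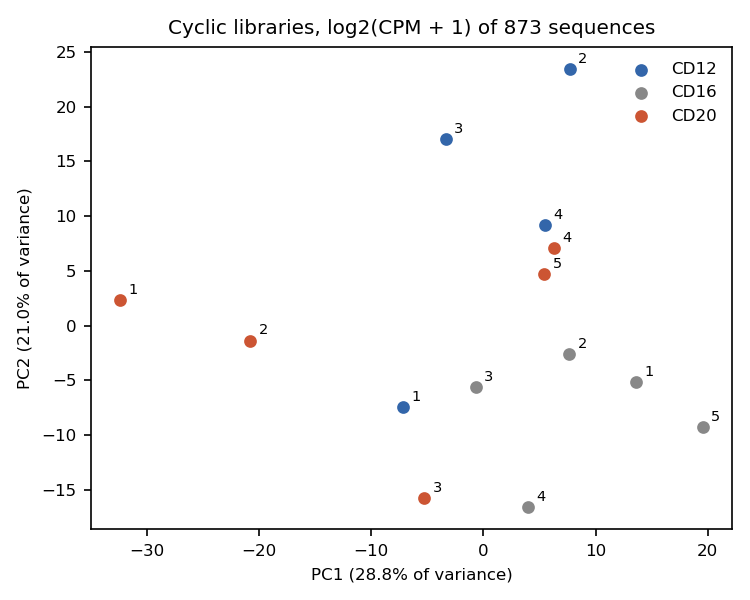
First and second principal components (28.8% and 21.03% of variance) of log2(CPM + 1) of the 873 sequences in 14 cyclic libraries, numbered by replicate within CD12, CD16 and CD20. CD20 replicates 1 and 2 lie at the left end, while CD20 replicates 4 and 5 lie near CD12 replicate 4.

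General properties of the libraries did not pass a test between the days. With 4 against 5 libraries there are 126 arrangements, and the smallest two-sided exact permutation p is 0.00794. Reads of 22 nt took 52.1% ± 3.96 in CD12 and 50.2% ± 1.20 in CD20 (SD, n = 4 and 5, exact permutation p = 0.333, adjusted 0.667 over 7 measures). Distinct sequences per 1000000 reads numbered 10126 ± 3897 in CD12 and 14832 ± 3209 in CD20 (SD, n = 4 and 5, exact permutation p = 0.0556, adjusted 0.389). They were lowest in the deepest library, CD12 replicate 2. Among annotated reads placed on a canonical sequence, 3′ deletions took 7.58% ± 1.52 in CD12 and 10.99% ± 2.83 in CD20 (SD, n = 4 and 5, exact permutation p = 0.0714, adjusted 0.214 over 3 shares). 3′ additions took 33.3% ± 3.89 and 31.7% ± 4.29, and changes at the 5′ end 4.11% ± 2.07 and 4.34% ± 1.93. These shares follow the most abundant miRNAs. With every miRNA weighted equally, 3′ deletions took 31.8% ± 1.42 in CD12 and 30.7% ± 1.89 in CD20 (SD, n = 4 and 5, exact permutation p = 0.365, adjusted 0.619), which is the opposite direction, and 3′ additions 15.9% ± 0.62 and 15.6% ± 0.65.

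Use of the ends and arms of single miRNAs is independent of the scaling. The mean read length was compared with limma for 125 miRNAs, of which 0 passed at an adjusted p under 0.05 and 13 had an unadjusted p under 0.05. The smallest p was that of miR-106b-5p, whose reads averaged 21.07 nt in CD12 and 21.35 nt in CD20 (limma adjusted p = 0.168). Ratios between the arms of 41 precursors gave 0 adjusted and 6 unadjusted p under 0.05. For miR-299 the log2 ratio of the major to the minor arm was 3.62 ± 1.37 in CD12 and 1.45 ± 0.65 in CD20 (limma adjusted p = 0.0923), and CD20 libraries were below CD12 libraries. The log2 ratio of miR-30c-5p to miR-30c-3p was 0.24 ± 1.21 in CD12 and 2.26 ± 1.21 in CD20 (limma adjusted p = 0.157), with overlap.

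To see where the cycle differed from pregnancy over the same days, the change from CD12 to CD20 was compared with that from PD12 (n = 5) to PD20 (n = 6), which share no library. The paper states that PD20 samples came from implantation sites, while until D16 of gestation the uterine horns were flushed. The part of this difference in sampling was not tested. Of the 873 sequences 1 passed (0.115% called), the canonical form of miR-205, and of the 237 sums 2 passed (0.844%), miR-205 and miR-212. Scaled over all 30 libraries, canonical miR-205 measured 2.19, 0.512, 1.91 and 4.95 CPM in CD12 and 10.6, 10.2, 15.8, 7.24 and 21.9 CPM in CD20. In pregnancy it measured 10.3, 2.06, 3.70, 1.70 and 3.53 CPM in PD12, and in PD20 it was 0 CPM in 3 libraries and 0.349, 0.681 and 1.77 CPM in the other three. All CD20 libraries lay above CD12, and the PD20 libraries lay below PD12 but for 1 that was above the lowest PD12 library. These levels rest on few reads, with 4, 2, 4 and 12 in CD12, 28, 29, 34, 13 and 46 in CD20, 33, 6, 8, 5 and 11 in PD12 and at most 3 in a PD20 library. The test of the difference of the changes passed (edgeR adjusted p = 0.00616) and the sequence was called in each of 24 alternatives, but the fitted difference of 5.75 on the log2 scale depends on the prior count. PD20 was therefore also set to 3 reads per library (1.19 CPM on average). From the group means the level was then 5.50-fold higher on D20 of the cycle and 3.57-fold lower on D20 of pregnancy. That is a difference of 4.30 on the log2 scale, which takes the observed means of CD12, CD20 and PD12 as they are. It does not cover their spread, and PD12 replicate 1 (10.3 CPM) lay far above the other PD12 libraries (1.70 to 3.70 CPM).

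Summed miR-205 averaged 18.3 ± 6.02 and 52.0 ± 21.4 CPM on D12 and D20 of the cycle and 20.98 ± 17.3 and 5.92 ± 5.03 CPM on the same days of pregnancy. The difference of the changes was 3.36 ± 0.79 (SE) on the log2 scale (edgeR adjusted p = 0.0395). For miR-212 the means were 1.59 ± 0.81 and 20.7 ± 7.82 CPM in the cycle and 7.02 ± 4.61 and 10.99 ± 1.34 CPM in pregnancy (difference 3.01 ± 0.75 SE, edgeR adjusted p = 0.0407). The PD12 mean of miR-212 lay between those of CD12 and CD20, but PD12 replicate 3 (14.8 CPM) was above CD20 replicates 1 (14.1 CPM) and 4 (12.4 CPM). These 2 calls were fragile, as miR-205 was called in 11 and miR-212 in 8 of 24 alternatives, and neither without CD20 replicates 1 and 2. Both calls were also lost without any 1 of the CD12 replicates, CD20 replicates 2, 3 or 5, PD12 replicates 1 or 3, or PD20 replicates 1, 3 or 5. For miR-17-5p the changes differed by 1.92 ± 0.53 SE (edgeR adjusted p = 0.0742), and for miR-140-3p by -1.64 ± 0.57 SE (edgeR adjusted p = 0.131). let-7i averaged 26833 and 10898 CPM on D12 and D20 of the cycle and 22647 and 12728 CPM on the same days of pregnancy, where it did not pass either (edgeR adjusted p = 0.0964), and the changes differed by -0.47 ± 0.44 SE (edgeR adjusted p = 0.650).

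**Figure D5:**
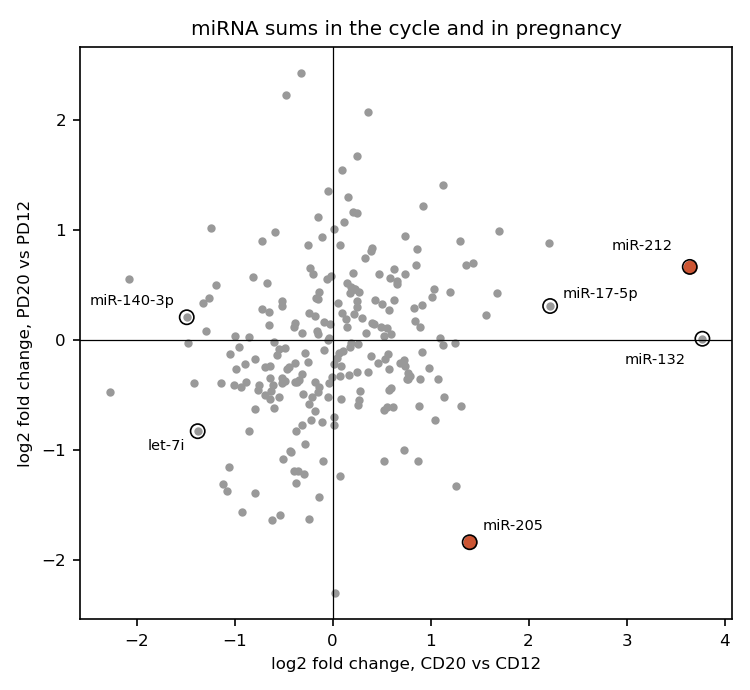
Log2FC of miRNA sums on D20 vs D12 in the cycle (x axis) against that in pregnancy (y axis), without the 1 sum that had 3 reads or fewer in all CD12 and CD20 libraries; orange points have changes that differ at an adjusted p under 0.05 and named sums are ringed. miR-205 lies at 1.40 in the cycle and -1.84 in pregnancy, and miR-212 at 3.65 and 0.66.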

How the data were processed

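The series holds 30 endometrial small RNA libraries. For each of them the authors deposited raw counts of reads per distinct sequence, made from reads that had passed a quality filter, lost their adapters and were at least 17 nt long without unknown bases; the counts were neither mapped nor normalized. Counts were joined by exact match to the 873 sequences annotated by the study, whose names also came from other mammals (131 sequences) or Ensembl IDs (17), and summed per miRNA arm and per seed (bases 2 to 8). Sequences matching several precursors numbered 13. Each isomiR was aligned without gaps to its canonical sequence, with 12 nt as the least overlap. Near-identical miRNAs share reads only where their sequences are identical, but short isomiRs may come from either.

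CD12, CD16 and CD20 libraries were fitted together in edgeR 4.0.16 (R 4.3.3) with TMM scaling (separate for sequences, sums and seeds), 1 mean per day and the quasi-likelihood F-test of the single contrast CD20 minus CD12, and log2FCs used a prior count of 0.125. The SE is the log2FC divided by the square root of F. The comparison with pregnancy was an interaction in 1 fit of all libraries. Read lengths (at least 100 reads) and arm ratios (at least 10 reads per arm, pseudocount 0.5) were tested with limma 3.58.1, and library properties by exact permutation. The fits were tested on simulated data. Totals of the CD12 and CD20 libraries were 2092518 to 6402731 reads, which limit the precision of low counts. SEs of abundant miRNAs mainly hold the spread between libraries. Alternatives were DESeq2 1.42.0, the likelihood ratio test, RLE scaling, all deposited reads as library size, other filters and fits, a replicate block, and each library left out; leaving out CD20 replicates 1 and 2 together, and the interaction of miRNA sums, were added after seeing the data. Fold changes of the authors were not used. The annotation at hand (RefSeq, Sscrofa11.1) differs from the build of the study and served only for neighbouring genes.

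The members and lists were chosen with earlier results of these data known. Named were all called features; up to 10 sequences and 8 sums in each direction with an unadjusted p under 0.05, at least 10 CPM and no overlap of the groups; the 10 most abundant sums; per list the 2 most abundant members and that with the smallest p; and the seeds of miR-140-3p. Not all were printed.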

Additional observations from a re-analysis of the deposited data

Results flagged for a closer look

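Single libraries stood apart from the rest of their group in 12 of 194 groups of values examined, where chance gives about 1 in 20 groups, here 9.7. CD20 replicate 1 was highest in distinct sequences per 1000000 reads (20540.4, next 13874) and in summed miR-27b-3p (20468 CPM, next 8091). CD20 replicate 3 was highest in 3′ deletions (15.9% of reads, next 10.96%). CD20 replicate 4 was highest in miR-23a with 1 nt added at the 3′ end (206 CPM, next 148) and in miR-1 (8433 CPM, next 2016), and CD12 replicate 3 in miR-1 (4378 CPM, next 1989). CD20 replicate 5 was highest in summed miR-205 (83.2 CPM, next 46.8). In CD12 replicate 1 the canonical miR-146a-5p (159 CPM, next 90.3) and summed miR-146a-5p (275 CPM, next 130.4) were highest. CD12 replicate 2 led in 2 isomiRs of miR-140-3p, the one 2 nt shorter at the 5′ and 1 nt shorter at the 3′ end (37.2 CPM, next 19.2) and the one 1 nt shorter at the 3′ end (2086 CPM, next 1302). CD12 replicate 4 was highest in miR-221-3p (216 CPM, next 146).

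The change from D12 to D20 differed between the cycle and pregnancy in the interaction test of edgeR for summed miR-212 (by 3.01 on the log2 scale, adjusted p = 0.0407), summed miR-205 (3.36, adjusted p = 0.0395) and the canonical sequence of miR-205 (adjusted p = 0.00616). For the last the fitted difference was 5.75, but no PD20 library had more than 3 reads of it. With 3 reads per PD20 library and the observed means of the other groups, the difference was 4.30.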

How the results depend on the processing

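For sequences, 3 were called in the fit described above, 15 with the likelihood ratio test, 17 with DESeq2, 6 with all deposited reads as library size, 20 with all 30 libraries in the fit, and 0 each with a mean of at least 10 CPM, with all 20351 deposited sequences, with the replicate block and without CD20 replicates 1 and 2; with single libraries left out it was 0 to 4, and 0 without any 1 of the CD12 replicates, CD20 replicate 2 or CD16 replicate 2. For miRNA sums, 2 were called, and 9 with the likelihood ratio test, 9 with DESeq2, 6 with all deposited reads, 7 with all 30 libraries, 1 at 10 CPM or more, 1 without CD20 replicates 1 and 2, and 1 to 4 with single libraries left out. For seeds, 1 was called, and 5, 4, 3 and 9 with the likelihood ratio test, DESeq2, all deposited reads and all 30 libraries, and 1 with each library left out. The comparison with pregnancy called 1 sequence, against 16 with the likelihood ratio test, 4 with all deposited reads, 3 with only D12 and D20 and 1 to 8 with single libraries left out, and 2 sums, against 10, 13, 2 and 0 to 9, and 0 without CD20 replicates 1 and 2. Read lengths gave 0 calls and 0 to 1, and arm ratios 0 and 0 to 3, with single libraries left out. The cause of these differences was not tested.

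Replicate numbers did not pair the libraries: the deviations of CD12 and CD20 libraries of the same number correlated at 0.15, -0.15, -0.45 and 0.05, and no number in CD12 correlated best with its own in CD20. When this number entered as a replicate block, 0 sequences, 2 sums and 1 seed were called. Of 90 named features, 23 changed sign under some alternative, 0 of them among the 39 with an unadjusted p under 0.05. Depth limited the called sequences of miR-212, which had 0 to 6 reads in CD12 libraries.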
